A study of Mus musculus with 4 samples.

Results

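Collagen genes were defined as the RefSeq GRCm38 protein-coding genes whose symbol is Col, a number, a, and a number, such as Col17a1, whatever their accessibility. There were 44 of them among 21887 protein-coding genes outside the mitochondrial chromosome, and accessible regions were counted at their ends, inside them and around them. The regions come from ATAC-seq, an assay that reads where the transposase Tn5 can cut chromatin, in hair follicle stem cells sorted from mouse back skin. The first group of the series is a Foxc1 knockout (K14-H2BGFP, K14Cre, Foxc1 fl/fl), in which Cre recombinase driven by the keratin 14 promoter removes the gene of a forkhead transcription factor from keratin 14-expressing cells. The second is the control (K14-H2BGFP, Foxc1 fl/fl), which carries the same reporter and floxed alleles but no Cre. All mice were females at postnatal day 30, and cells were gated as H2BGFP(+), Sca-1(-), CD34(+) and CD49f(+). Each genotype is represented by 1 library sequenced in 2 runs, so there is no biological replicate, and the labels used here do not say whether animals were pooled.

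The 4 runs share a single list of 74777 regions with coordinates only. No region has a genotype, a read count or a score, so knockout and control could not be compared, the read depth is unknown, and no value has an error over samples. Counts over collagen genes are therefore set beside the same counts over all protein-coding genes as a description of the list, with no test. Regions at cells of a minor type in the sort, and weak regions that were missed, cannot be recognised in such a list.

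Collagens are extracellular matrix proteins built from alpha chains that wind around one another in a triple helix, each chain being the product of a gene of its own. Fibrillar collagens form the banded fibrils of dermis, bone and cartilage and are made largely by fibroblasts, osteoblasts and chondrocytes. Type IV collagens form the network of basement membranes, the sheets on which epithelial cells sit, and types XV and XVIII are attached to such membranes. Transmembrane collagens sit in the plasma membrane, and collagen XVII, the product of Col17a1, is part of the hemidesmosome that fastens basal keratinocytes to the basement membrane and is known for its role in keeping hair follicle stem cells in place. The remaining members include anchoring fibril collagen VII, beaded filament collagens of type VI, short-chain collagens and collagens that attach to the surface of fibrils.

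The bases just upstream of the start are shown for 6 members, because their accessibility differs. Col17a1 is the member with the widest regions, Col4a5 and Col4a6 face each other across the short space between them, and Col1a2, Col3a1 and Col6a1 are fibroblast collagens with and without a region at the start. The sequences are from RefSeq (GRCm38.p6, the build called mm10), read 5′ to 3′ on the strand of the gene and cut where they would enter a protein-coding gene. The stretches are chr19:47692043-47692292 for Col17a1 (minus strand), chrX:141475169-141475369 for Col4a5 (plus strand), chrX:141474096-141474326 for Col4a6 (minus strand), chr6:4505368-4505617 for Col1a2 (plus strand), chr1:45311288-45311537 for Col3a1 (plus strand) and chr10:76726045-76726294 for Col6a1 (minus strand). Capitals mark matches on either strand to 6 motifs, none of which overlap one another in these stretches. TATAAA is bound by the general factor TBP, CCAAT by the factor NF-Y, GGGCGG by SP1, TGANTCA by AP-1 factors, GTAAACA by forkhead factors and TGTGGTT by RUNX factors.
Col17a1: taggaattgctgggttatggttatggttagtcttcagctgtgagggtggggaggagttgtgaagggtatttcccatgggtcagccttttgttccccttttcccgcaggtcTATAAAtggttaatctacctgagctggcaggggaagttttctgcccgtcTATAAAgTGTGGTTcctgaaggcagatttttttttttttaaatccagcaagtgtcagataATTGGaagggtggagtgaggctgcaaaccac
Col4a5: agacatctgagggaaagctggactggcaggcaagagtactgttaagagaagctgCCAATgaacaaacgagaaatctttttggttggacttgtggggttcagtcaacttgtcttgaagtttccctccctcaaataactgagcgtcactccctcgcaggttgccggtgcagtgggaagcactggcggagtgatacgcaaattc
Col4a6: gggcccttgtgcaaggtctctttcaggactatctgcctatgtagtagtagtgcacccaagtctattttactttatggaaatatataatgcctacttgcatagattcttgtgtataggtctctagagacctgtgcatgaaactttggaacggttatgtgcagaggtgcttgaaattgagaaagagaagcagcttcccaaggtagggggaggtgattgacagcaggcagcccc
Col1a2: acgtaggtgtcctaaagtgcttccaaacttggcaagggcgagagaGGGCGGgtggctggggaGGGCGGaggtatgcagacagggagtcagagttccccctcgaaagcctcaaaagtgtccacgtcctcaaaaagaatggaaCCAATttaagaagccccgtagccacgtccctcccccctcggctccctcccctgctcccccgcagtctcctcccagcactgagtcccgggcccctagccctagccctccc
Col3a1: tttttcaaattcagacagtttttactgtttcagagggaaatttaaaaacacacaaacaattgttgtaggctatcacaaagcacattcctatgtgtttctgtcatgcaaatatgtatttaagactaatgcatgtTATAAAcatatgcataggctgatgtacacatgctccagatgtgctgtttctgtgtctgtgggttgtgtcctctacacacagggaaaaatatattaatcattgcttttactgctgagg
Col6a1: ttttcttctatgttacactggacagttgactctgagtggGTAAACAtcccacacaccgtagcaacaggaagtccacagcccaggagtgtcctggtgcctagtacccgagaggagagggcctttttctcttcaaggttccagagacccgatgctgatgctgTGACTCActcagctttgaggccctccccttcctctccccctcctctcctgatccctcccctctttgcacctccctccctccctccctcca

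Accessible regions covered all 250 bp of the Col17a1 stretch, all 201 bp at Col4a5, 211 of 231 bp at Col4a6 and 136 of 250 bp at Col1a2, and 0 bp at Col3a1 and Col6a1. The Col17a1 stretch held TATAAA at -140 and -91, TGTGGTT at -84 and ATTGG, the reverse complement of CCAAT, at -31, each counted from the start to the first letter. That of Col3a1 held TATAAA at -117 and that of Col4a5 CCAAT at -196. The listed starts of Col4a5 and Col4a6 lie inside the gene bounds, so their stretches were cut short of these starts. A GGGCGG at -30 of Col4a5 and its reverse complement CCGCCC at -21 of Col4a6 were lost or broken by the cut and are not marked. The Col1a2 stretch held GGGCGG at -205 and -188 and CCAAT at -109. That of Col6a1, where no region lay, was the only one of the 38 collagen promoter windows with the forkhead letters, at -211, and it held TGACTCA at -90. These are letter matches in short windows and say nothing about binding.

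Marker genes of the sorted population and of other skin cells were checked in the same list. Regions were counted whether or not another gene ends nearby. All 8 hair follicle stem cell markers had a region within 1 kb of a gene end, as did 4 of 5 basal keratinocyte markers, Trp63 being the exception. Of 10 dermal fibroblast markers 2 did, Dcn and Fbln1, and of 4 immune cell markers 0 did. Endothelial markers had such a region in 1 of 4 cases (Kdr), and melanocyte markers in 3 of 4 cases (Dct, Pmel and Mlana). Over all protein-coding genes the share was 57.6%, and lists of 4 to 10 genes give coarse shares.

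A total of 20 of the 44 collagen genes, or 45.5%, had a region within 1 kb of either end, where 57.6% of all protein-coding genes had one. Collagen genes are long, with a median of 114 kb and a range of 7.11 to 420 kb, where the median protein-coding gene had 17.2 kb. Among the 500 protein-coding genes nearest in length to each member, 67.9% had an accessible end on average. The RefSeq promoter windows used here list a transcription start for 35 members and lack the other 9. Of the 35, 16 had an end region, and in every one of these 16 it lay at the end where transcription starts. Col17a1, Col23a1 and Col25a1 had a region at the far end too. Counted from the listed starts instead of the gene bounds, 17 of 35 members had a region within 1 kb, where 58.3% of protein-coding genes with a listed start did. The additional member was Col27a1, whose listed start lies inside its outermost bound.

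The collagen share depended on the window. With 500 bp it was 43.2% (19 members), beside 54.4% of all protein-coding genes, and it was the same when the midpoint of a region had to lie in the 1 kb window, beside 54.2%. With regions of at least the median width of 587 bp it was 34.1% (15 members), beside 51.6%. Of 30 members with no other protein-coding gene end within 2 kb, 10 (33.3%) had an end region, beside 48.9% of such protein-coding genes. With 2.5 kb either side of a gene end the share of all 44 members was 63.6% (28 members), beside 63.5% of all protein-coding genes, and with 5 kb it was 75% (33 members), beside 69%. The members closest to the 1 kb limit on the outside were Col9a2, whose nearest region began 1051 bp from a gene end, Col12a1 at 1113 bp, Col13a1 at 1276 bp and Col24a1 at 1414 bp. Closest on the inside were Col1a1 at 545 bp and Col19a1 at 439 bp. Among the 24 members without an end region the median distance was 4232.5 bp, and 8 had no region within 10 kb of either end.

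**Figure D1:**
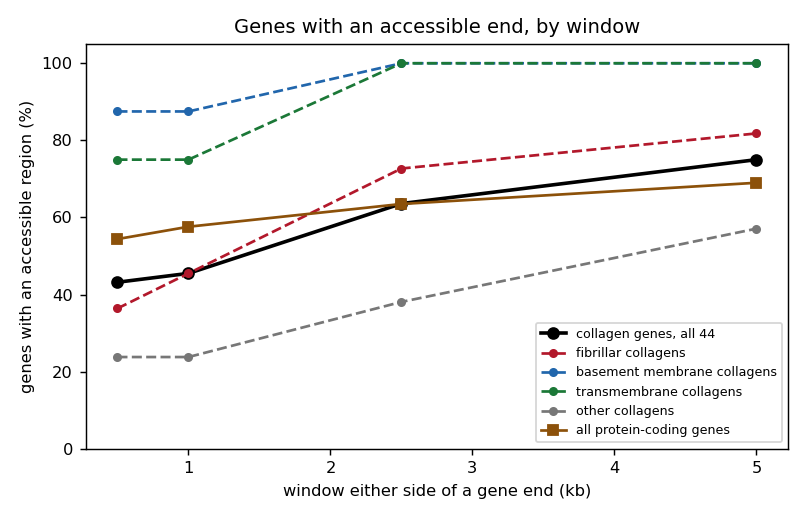
Percent of genes with an accessible region (vertical axis) against the window either side of a gene end (horizontal axis, kb), for all 44 collagen genes, the 4 collagen classes and all protein-coding genes. The line of all collagen genes meets that of all protein-coding genes at 2.5 kb, while basement membrane collagens stand at 87.5% already with 500 bp.

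By class, basement membrane collagens had an accessible end in 7 of 8 cases (87.5%), transmembrane collagens in 3 of 4 (75%), fibrillar collagens in 5 of 11 (45.5%) and the other collagens in 5 of 21 (23.8%), beside 57.6% of all protein-coding genes. Among the 500 genes nearest in length to each member the mean share was 69.1% for basement membrane, 67.8% for transmembrane, 68.2% for fibrillar and 67.4% for other collagens. The counts of fibrillar and other collagens moved with the window and the width asked for. With 2.5 kb, 8 fibrillar (72.7%) and 8 other collagens (38.1%) had an end region, beside 63.5% of all protein-coding genes, and with 5 kb 9 (81.8%) and 12 (57.1%), beside 69%. With regions of at least the median width 3 of each had one, 27.3% of fibrillar and 14.3% of other collagens, beside 51.6%. Of basement membrane collagens 6 of 8 (75%) then had one, as Col4a6 dropped out. The other members that dropped out were Col1a2, Col5a3, Col14a1 and Col19a1. All type IV genes, Col18a1, Col17a1, Col23a1, Col11a2, Col6a6, Col7a1, Col9a3 and Col20a1 have another protein-coding gene end within 2 kb. Col15a1, which had no end region, is thus the only basement membrane collagen without such a neighbour. Protein-coding genes without such a neighbour had an accessible end in 48.9% of cases. Differences between classes were not tested, nor was the part of neighbouring gene ends in them. The 20 members held 25 end regions in all, of which 2 were counted for a pair of members each, which leaves 23 distinct regions. Their median width was 886 bp, against 1189 bp for the 13087 regions at the ends of all protein-coding genes. Classes hold few genes and neighbouring members share regions, so the class counts are no replicates of one another.

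**Figure D2:**
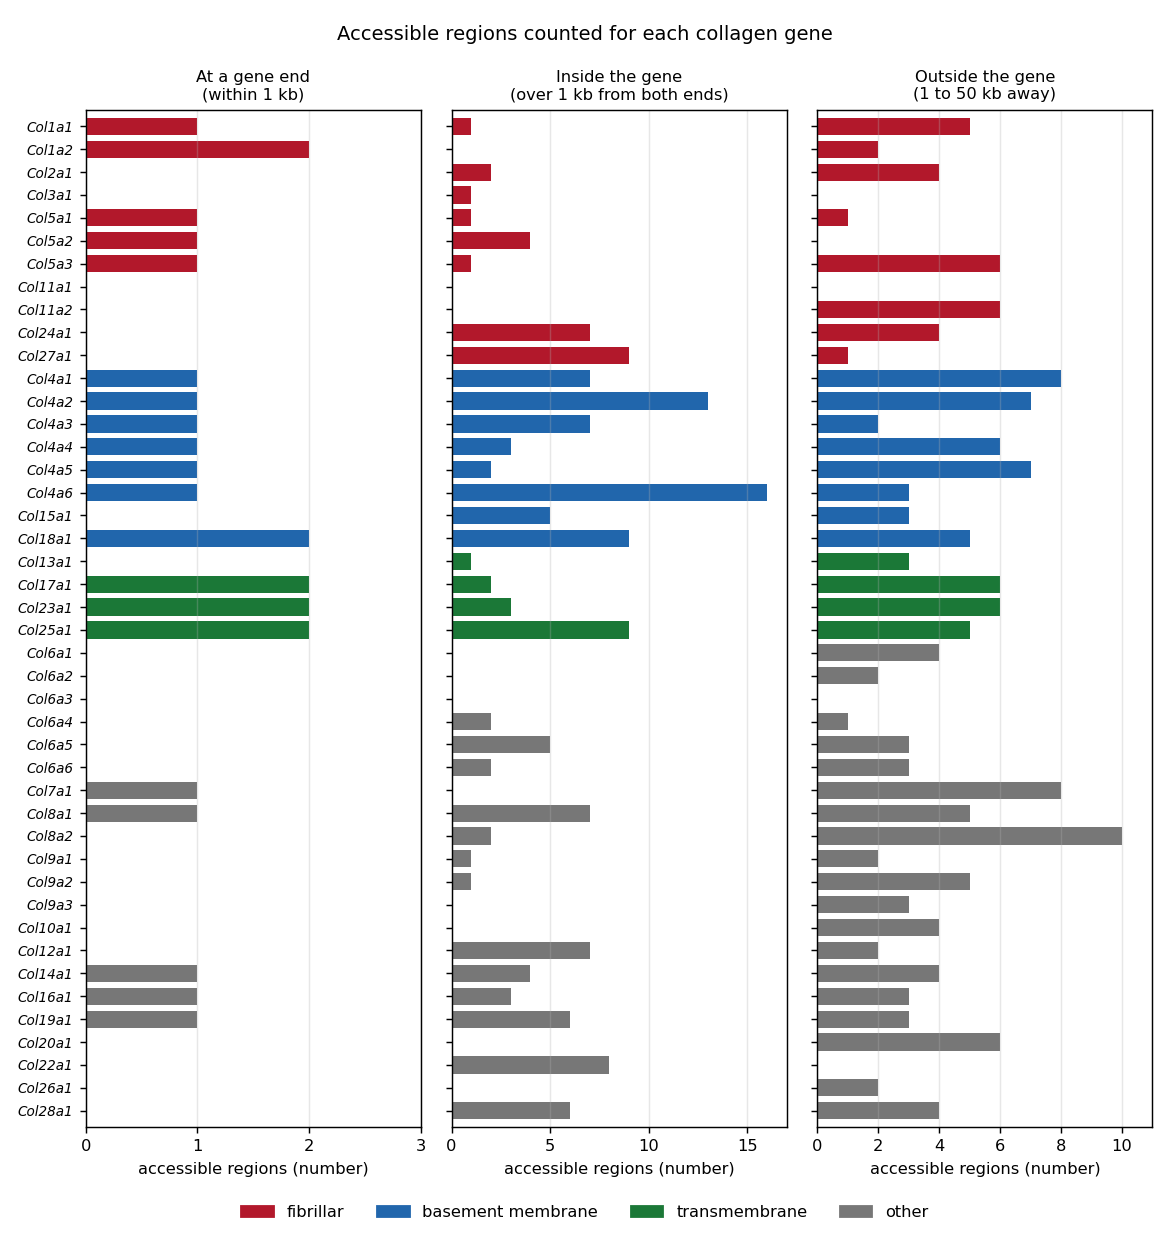
Number of accessible regions at a gene end, inside the gene and outside it up to 50 kb (3 panels, horizontal axes) for each of the 44 collagen genes (rows), coloured by class. With the 1 kb window and regions of any width, all 6 type IV genes have an end region and all 6 type VI genes have none.

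The type IV genes are arranged head to head in pairs, so that the genes of a pair face each other with their starts. All 6 had an end region. Col4a1 and Col4a2, which encode the chains found in nearly all basement membranes, overlap by 85 bp at their facing ends. A single region of 2169 bp (chr8:11312051-11314219, mm10) covered both starts and was counted for both genes. Col4a4 and Col4a3 encode chains known above all from the kidney filter. They overlap by 114 bp, and a single region of 1291 bp (chr1:82586421-82587711) covered their facing ends in the same way. Col4a6 and Col4a5, on the X chromosome, encode chains that occur in the basement membrane of skin. Their facing bounds are 1274 bp apart, and each gene had a region of its own, of 455 bp at Col4a6 (chrX:141473852-141474306) and 886 bp at Col4a5 (chrX:141475126-141476011).

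The 2 genes of a pair differed in the number of regions inside them, more than 1 kb from both ends. Positions inside and around genes are given for the midpoint of a region. Col4a2 held 13 and Col4a1 7, Col4a3 held 7 and Col4a4 3, and Col4a6 held 16 and Col4a5 2. Col4a6 is 309 kb long and Col4a5 214 kb, so that Col4a6 had 5.18 regions per 100 kb of gene and Col4a5 0.935. For Col4a2, 94.4% of the 500 protein-coding genes nearest in length held fewer inside regions, for Col4a6 80.8%, for Col4a1 78.6%, for Col4a3 76.2%, for Col4a4 39.8% and for Col4a5 19.8%. The widest inside region of Col4a1, with 1694 bp, lay 5436 bp from its upper bound, and that of Col4a2, with 1477 bp, lay 30634 bp from its lower bound. That of Col4a3, with 1645 bp, lay 6449 bp from the upper bound, near the far end of the pair. The 16 regions of Col4a6 lay from 21354 to 275021 bp from its start and were 267 to 1142 bp wide. Because the genes of a pair adjoin, all 7 regions around Col4a5 and 5 of the 8 around Col4a1 lay inside another protein-coding gene, the partner in 5 cases each.

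**Figure D3:**
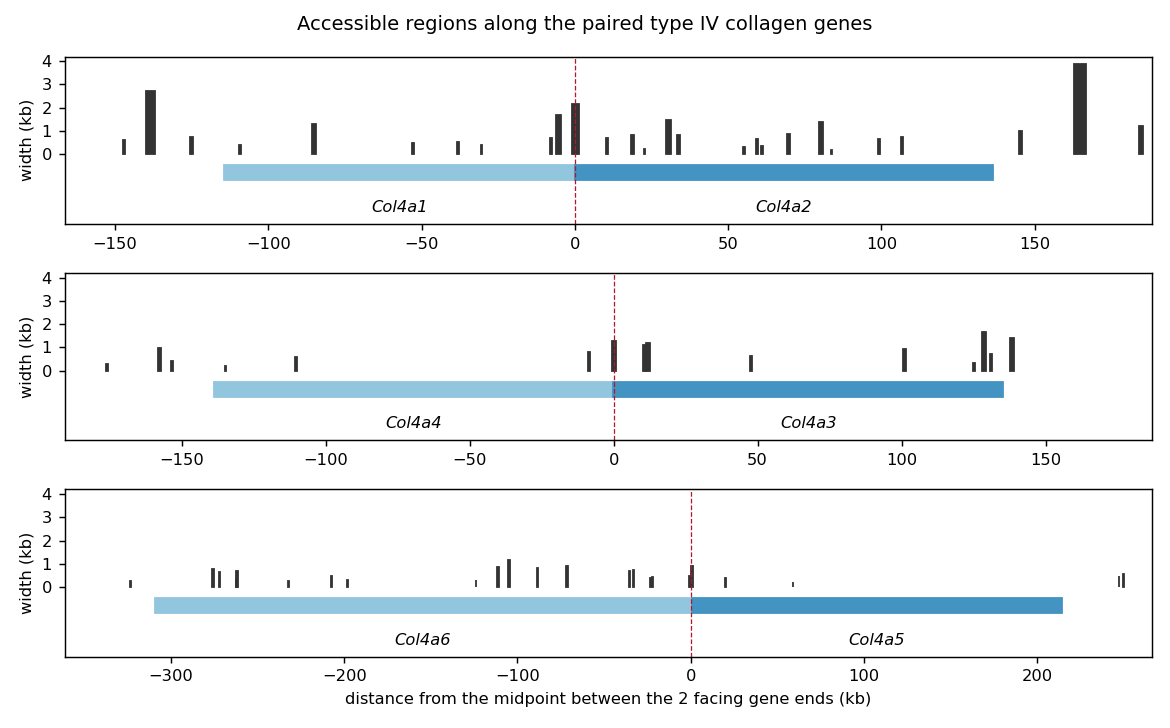
Accessible regions (dark bars, drawn at least 0.5 kb wide, height giving their width in kb) along the 3 head-to-head pairs of type IV collagen genes (blue bars), against the distance from the midpoint between the facing gene ends (dashed line, kb). A region stands at the dashed line in the first and the second pair, 2 narrower ones flank it in the third pair, and Col4a6 holds 16 inside regions while Col4a5 holds 2.

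Of the basement membrane collagens outside type IV, Col18a1, whose product is cut to release endostatin, had 2 regions at its start, of 892 bp and 712 bp, the second counted also among its surrounding regions. It held 9 inside, more than 87.4% of the genes nearest in length did. RefSeq lists a second start of Col18a1 inside the gene, and the inside region of 1633 bp (chr10:77111225-77112857) lay within 1 kb of it without reaching the 300 bp around it. Col15a1, the gene of the related collagen XV, had no end region and 5 inside, the widest of 1440 bp, 43981 bp from its lower bound. Regions around the gene numbered 8 at Col4a1, 7 at Col4a2 and Col4a5, 6 at Col4a4, 5 at Col18a1, 3 at Col4a6 and Col15a1 and 2 at Col4a3.

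Among transmembrane collagens Col17a1 stood out by the width of its regions rather than their number. Col17a1 (gene ID 12821, chr19:47646341-47692042, transcribed towards lower coordinates) had a region of 1821 bp over its start (chr19:47691300-47693120) and one of 1229 bp at its far end (chr19:47646500-47647728). Only 2 regions lay inside, but they measured 5752 bp (chr19:47679835-47685586) and 9809 bp (chr19:47669750-47679558), with midpoints 9332 and 17388 bp from the start. Of all regions of the list on the nuclear chromosomes, 21 were as wide as the second or wider, itself included, and 74 as wide as the first. Together the regions covered 38.4% of the 45.7 kb gene. Among the 500 protein-coding genes nearest in length the median was 2.53%, and 100% of them had a lower covered share. Of 6007 protein-coding genes of at least 40 kb, 9 had a higher one. Upstream of its start lay 6 more regions, the widest of 3741 bp at 6545 bp and of 3168 bp at 38378 bp, the one of 3168 bp also at an end of the neighbouring gene Sfr1. The covered share was examined after these widths had been seen.

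The other transmembrane collagens had no region wider than 1748 bp at an end, inside or within 50 kb. Col25a1, known from neurons, spans 420 kb and had a region of 1460 bp at its start, one of 200 bp at its far end and 9 inside, where the median gene of its length held 8. Its start region was chr3:130180248-130181707, and the inside regions, 200 to 1152 bp wide, had midpoints from 84909 to 394518 bp from the start. Col23a1 had a region of 647 bp at its start (chr11:51289465-51290111) and 3 inside, below the median of 6 at its length. The 3 had midpoints 166039, 237341 and 250142 bp from the start and were 311, 446 and 723 bp wide. Its far-end region of 1748 bp (chr11:51584036-51585783) lay also at an end of Phykpl. Col13a1, known from the neuromuscular junction, had no end region and 1 inside, although a region of 400 bp had its midpoint 1475 bp upstream of its outermost bound. Around the genes lay 6 regions at Col17a1 and Col23a1, 5 at Col25a1 and 3 at Col13a1.

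Among the fibrillar collagens, 5 of 11 had an end region. Col1a1 and Col1a2 encode the chains of collagen I, the main collagen of dermis and bone. Col1a2 had 2 narrow regions at its start, of 539 bp (chr6:4505482-4506020) and 419 bp (chr6:4506139-4506557), and 0 inside. Col1a1 had a region of 925 bp (chr11:94936769-94937693) that touched the window at its lower-coordinate end, with its midpoint 1007 bp inside, so that it was counted both at the end and inside. It dropped out of the end count with a 500 bp window or when the midpoint was asked to lie in the window. Col3a1, whose product shares fibrils with collagen I, had no end region, none within 50 kb and a single region of 669 bp inside, 2546 bp from its start (chr1:45313750-45314418). Beside these values stand the dermal fibroblast markers above, of which Dcn and Fbln1 had an end region. Dpt, Lum, Pdgfra, Pdgfrb, Fap, Twist2, Crabp1 and Thy1 had none. The part of other cells in the regions at Col1a1 and Col1a2 was not tested.

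The collagen V genes, whose products set the diameter of collagen I fibrils, all had an end region, of 1601 bp at Col5a2, 1417 bp at Col5a1 and 200 bp at Col5a3. Their inside counts were 4, 1 and 1. The end region of Col5a3 had the smallest width in the list and covered 0 bp of the 300 bp window around its start. The genes of cartilage collagens had no end region. Col2a1 had 2 regions inside, and Col11a1 and Col11a2 had 0 inside. Col11a1, 190 kb long, was with Col6a3 one of 2 members with no region at an end, inside or within 50 kb. Col24a1, of 260 kb, and Col27a1, of 121 kb, held the most fibrillar inside regions, 7 and 9. The first of those in Col27a1, of 1175 bp, lay 2454 bp from its lower bound and within 1 kb of its listed start. Of the genes nearest in length to Col27a1, 87.2% held fewer inside regions. In Col24a1 the value was 55.2%, and its 7 regions, 200 to 949 bp wide, lay from 1513 to 215148 bp from its start. Regions from 1 to 50 kb outside numbered 6 at Col5a3 and Col11a2, 5 at Col1a1, 4 at Col2a1 and Col24a1, 2 at Col1a2 and 1 at Col5a1 and Col27a1.

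**Figure D4:**
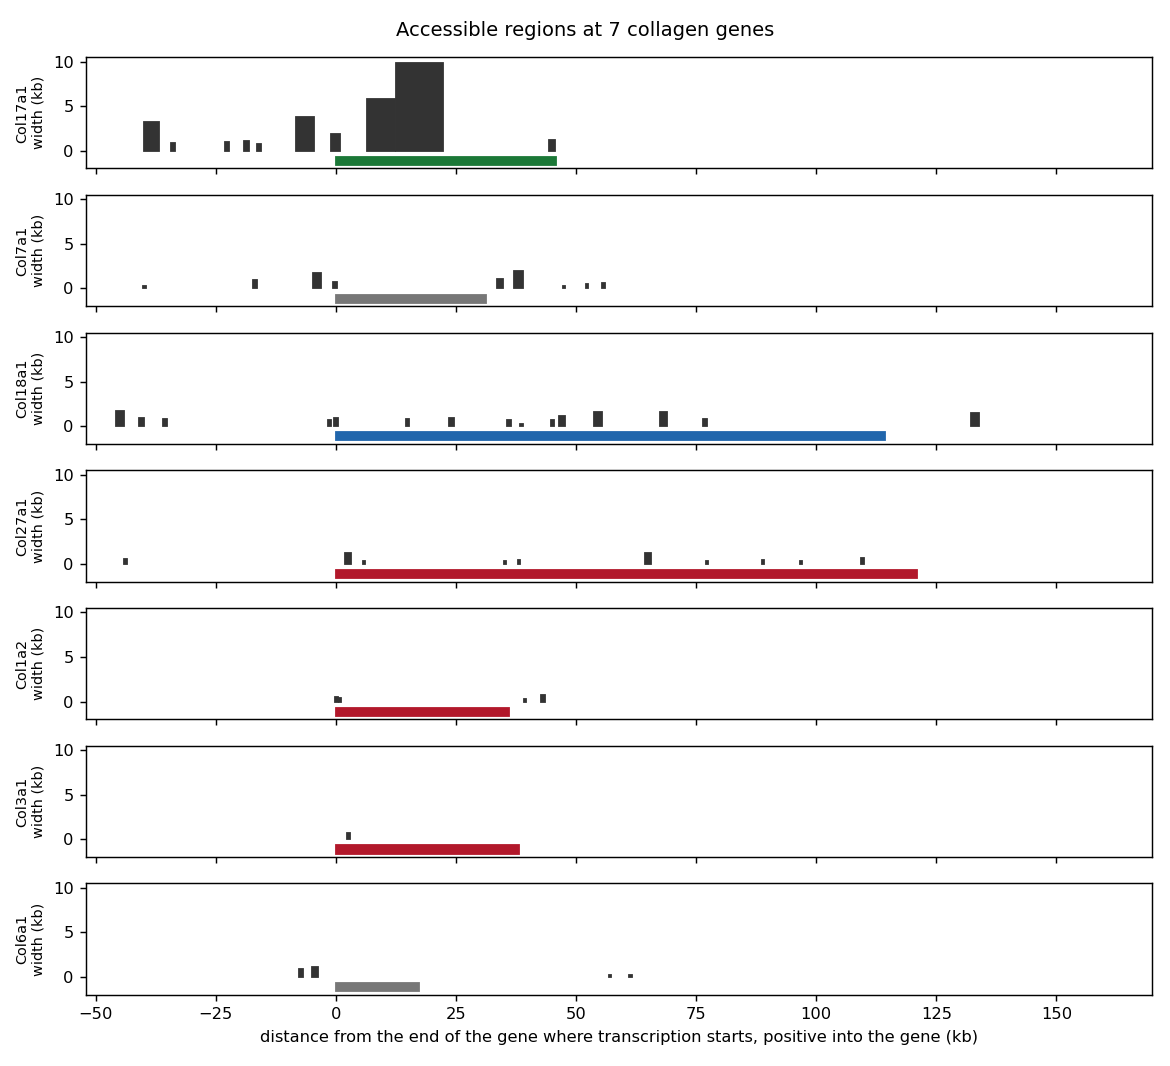
Accessible regions (dark bars, drawn at least 0.5 kb wide, height giving their width in kb) at Col17a1, Col7a1, Col18a1, Col27a1, Col1a2, Col3a1 and Col6a1, against the distance from the end of the gene where transcription starts (kb, positive into the gene, coloured bar). The regions of 5752 and 9809 bp fill much of the first part of Col17a1, while Col7a1, Col1a2 and Col6a1 have none inside.

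In the remaining class, 5 of 21 members had an end region. Col7a1 encodes the anchoring fibril collagen that ties the epidermal basement membrane to the dermis. Its start carried a region of 693 bp (chr9:108953009-108953701), with 0 inside its 31.3 kb. Of 8 regions around it, 6 lay inside neighbouring genes, such as Uqcrc1 and Pfkfb4, and 0 had a Col7a1 end as their nearest protein-coding gene end. Col8a1, the gene of a short-chain collagen, had the widest end region of the family, 2381 bp over its start (chr16:57753467-57755847), 7 inside and 5 around. Of the 7 inside, 4 lay between 2035 and 7157 bp from the start. Col8a2 had no end region, 2 inside and 10 around it, the most of any member, but none of the 10 had a Col8a2 end as its nearest protein-coding gene end. Its inside regions, of 1454 and 434 bp, lay 14795 and 23235 bp from the start. Col10a1, the marker of hypertrophic cartilage, had none at its ends or inside and 4 around.

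None of the 6 type VI genes had an end region, beside 57.6% of all protein-coding genes and 68.2% of those nearest in length. With 2.5 kb either side of a gene end Col6a4 had one, and with 5 kb Col6a1 as well. Inside, Col6a1, Col6a2 and Col6a3 had 0, Col6a4 and Col6a6 2 each and Col6a5 5. Around them lay 4 regions at Col6a1, 3 at Col6a5 and Col6a6, 2 at Col6a2, 1 at Col6a4 and 0 at Col6a3. The nearest region lay 3788 bp from an end at Col6a1, 41095 bp at Col6a2 and 52433 bp at Col6a3. The first 3 encode the chains of the collagen VI made by dermal fibroblasts.

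Of 9 fibril-associated collagens, Col14a1, Col16a1 and Col19a1 had an end region, of 200, 721 and 511 bp, and 4, 3 and 6 regions inside. The width at Col14a1 was the smallest in the list. The widest surrounding region of the family, 4881 bp in width, lay 25980 bp outside Col19a1 and inside no protein-coding gene. Read filters were not given, and whether its reads map to this place alone was not tested. Col12a1 had none in the 1 kb window, but its region of 3651 bp (chr9:79716378-79720028) came within 1113 bp of the upper bound. It held 7 regions, and they covered 8.52% of the gene, more than in 92.4% of genes nearest in length. Col22a1, 355 kb long, held 8 inside and Col9a1 and Col9a2 1 each, while Col9a3 and Col20a1 held 0. Around them lay 6 regions at Col20a1, 5 at Col9a2, 4 at Col14a1, 3 at Col9a3, Col16a1 and Col19a1, 2 at Col9a1 and Col12a1 and 0 at Col22a1. Of the 2 ungrouped members Col28a1 held 6 inside and Col26a1 0, and neither had an end region, while 4 and 2 regions lay around them.

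Over the whole family, 33 of 44 members (75%) had at least 1 region inside, over 1 kb from both ends, where 38.8% of all protein-coding genes did. The median was 2 regions for collagen genes (quartiles 0.75 and 6.25) and 0 for all protein-coding genes (quartiles 0 and 1). Among genes of 50 kb or longer the medians were 5 for the 29 collagen genes and 3 for all protein-coding genes. Their median lengths were 139 and 98.5 kb, and per 100 kb of summed gene length they held 2.93 and 2.87 inside regions. Against the median of the 500 genes nearest in length, 21 members held more inside regions, 9 as many and 14 fewer. Per 100 kb of summed gene length, collagen genes held 2.88 inside regions and all protein-coding genes 2.94. The classes stood at 4.89 for basement membrane, 2.49 for fibrillar, 2.42 for other and 1.67 for transmembrane collagens, the last not counting how wide the regions of Col17a1 are. In 6 of 8 basement membrane genes the inside count was above the median at their length, in Col4a4 it equalled it, and in Col4a5 it was below.

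**Figure D5:**
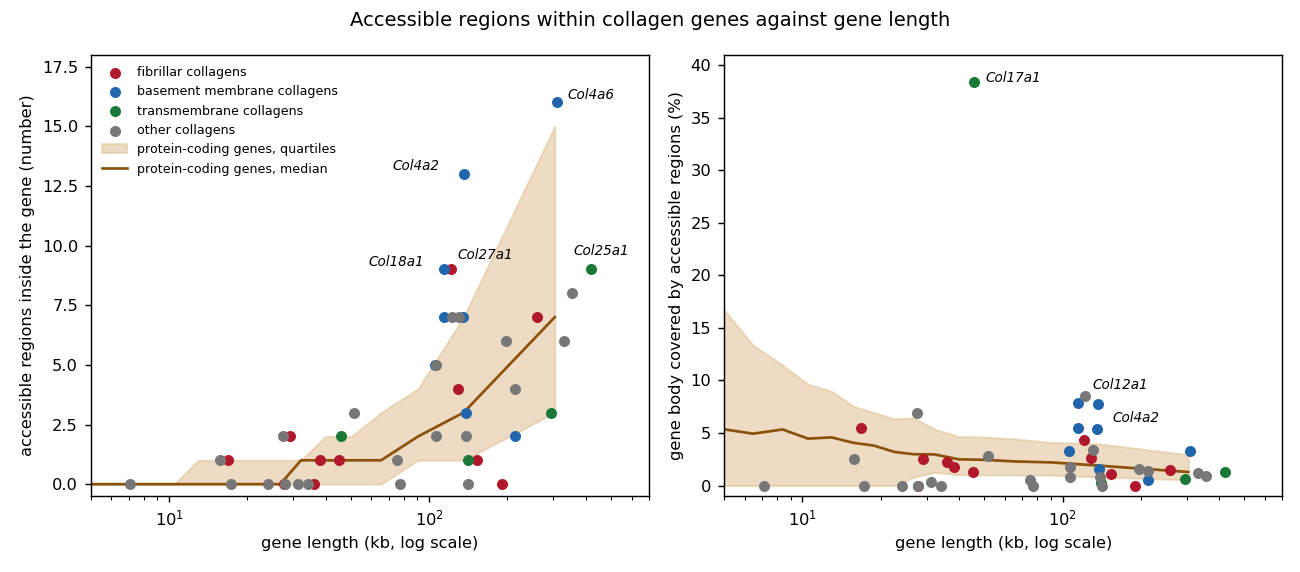
Number of accessible regions inside the gene (left) and percent of the gene body covered by accessible regions (right) against gene length (kb, log scale) for the 44 collagen genes (points, coloured by class), with the median (line) and quartiles (band) of protein-coding genes in bins of length. Col4a2 with 13 regions lies above the band on the left, and Col17a1 with 38.4% lies far above all other members on the right.

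In the 35 members with a listed start, cut into equal first, middle and last parts, the first part held 40.3% of 124 inside regions, the middle part 29% and the last part 30.6%. Over all 17492 protein-coding genes with a listed start these shares were 38.4%, 32.8% and 28.8%.

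From 1 to 50 kb outside the gene, 39 of 44 members (88.6%) had at least 1 region, where 87.2% of all protein-coding genes did. The median was 3.5 for collagen genes and 3 for all protein-coding genes. Members without any were Col3a1, Col5a2, Col6a3, Col11a1 and Col22a1. Many of these regions lie at or in neighbouring genes, and with only those counted whose nearest protein-coding gene end is that of the member, the median was 0.5 for collagen genes and 0 for all protein-coding genes. On that count Col4a1 had 8, of which 5 lie inside Col4a2, and Col4a2 had 4, all of them inside Col4a1. Col25a1 had 5 and Col18a1 4.

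The 38 windows of 300 bp around the starts of 35 collagen genes were also compared in base composition. The 18 windows with a region within 1 kb of the start had a median of 16 CpG dinucleotides, and the 20 without had 6. Over all protein-coding genes the medians were 21 and 4. CCAAT occurred in 10 of the 18 windows with a region (55.6%) and in 3 of the 20 without (15%), while over all protein-coding genes the shares were 39% and 37%. GGGCGG occurred in 14 of 18 (77.8%) and 9 of 20 (45%), against 65.3% and 20.7% over all protein-coding genes. The windows of Col4a1 and Col4a2 overlap by 78 bp, and 1 GGGCGG site in the overlap is counted for both among the 14. TATAAA occurred in 1 of 18, at Col17a1, and in 4 of 20, at Col3a1, Col10a1, Col11a2 and Col13a1. GTAAACA was found in 2.63% of the 38 collagen windows and in 3.01% of all 21263 windows. TGTGGTT was found in 2.63% of collagen windows, at Col17a1, and in 4.71% of all, and TGANTCA in 2.63%, at Col6a1, and in 6.99%.

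Genes whose products modify, export, cross-link or bind collagen had an accessible end in 38 of 48 cases (79.2%), and the 44 collagen genes in 45.5%. The difference was not tested. Of 16 genes for hydroxylation, glycosylation and folding of the chains, 14 had an end region, among them the prolyl hydroxylase genes P4ha1 and P4ha2 and the collagen chaperone gene Serpinh1, and P4ha3 and Colgalt2 had none. Of 9 genes for export and trimming 7 did, without Tll2 and Pcolce, and of 5 lysyl oxidase genes, which encode cross-linking enzymes, 3 did, without Loxl1 and Loxl2. Among collagen receptor genes 6 of 10 did. Itga1 held 15 inside regions, and Itga11, Ddr2, Gp6 and Lair1 lacked an end region. All 8 partners of Col17a1 at the hemidesmosome and its basement membrane did, with 31 regions inside Dst and 22 inside Lama3. Each of these counts stands beside the 57.6% of all protein-coding genes.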

How the data were processed

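Accessible regions were measured by ATAC-seq. The submitters' processing notes name build mm10, Bowtie2, MACS2 and bedtools. Their versions, settings and read filters, any Tn5 offset and any pooling of runs were not given in the sources at hand. The file of the authors used here holds a chromosome, a start and an end for each region, and 0 per-sample columns went unused. Starts were converted to 1-based positions. Groups came from the genotype labels, and resequenced runs count as the same library.

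Gene bounds came from a RefSeq table of GRCm38.p6, and strand and starts from its promoter windows (250 bases before to 50 after a start), which hold 35 of 44 members by gene ID. An end region shares at least 1 base with the window of 1 kb either side of a gene bound. An inside region has its midpoint between the bounds and over 1 kb from both; a surrounding region has it 1 to 50 kb outside. A wide region can count in 2 of these. Each member was also set beside the 500 other protein-coding genes nearest in log length, a comparison chosen after the data were seen. Counting was tested on simulated regions. Python 3.11.15, pandas 2.3.3, numpy 2.4.6 and matplotlib 3.10.9 were used.

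Members, classes and lists were chosen with earlier results of these data known. Counts of every member are given. Positions are given for Col17a1, Col7a1, the type IV genes, Col18a1, Col1a1, Col1a2 and Col3a1, for the 2 members of each class with the most regions, and for a few others chosen after their values were seen. The basement membrane class held types IV, XV and XVIII.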

Additional observations from a re-analysis of the deposited data

How the results depend on the processing

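Counts changed by up to 1.5 times under 21 of 34 alternatives and by more under 13. With 5 kb windows 33 collagen genes had an end region, and with 2.5 and 5 kb 8 and 9 fibrillar and 8 and 12 other collagens did, as wider windows can only add genes. Among the 30 members with no other protein-coding gene end within 2 kb, 10 had an end region (33.3%, beside 48.9% of all such protein-coding genes). With regions of at least the median width (587 bp), 3 fibrillar and 3 other collagens kept an end region, inside regions numbered 71 instead of 157, and regions 1 to 50 kb outside 94 instead of 164. Regions outside numbered 70 up to 20 kb, 317 up to 100 kb, and 53 where the nearest protein-coding gene end was the member's. With basement membrane collagens taken as type IV alone or with Col7a1 added, 6 of 6 and 8 of 9 had an end region. No paired analysis was possible because the list carries no values by library, and leaving out a replicate was not possible for the same reason. Read depth is unknown, so missing regions cannot be told from low depth.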
